A study of Mus musculus with 8 samples.

Results

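The genes of mitosis and cytokinesis, 44 in all, were examined in RNA sequencing of CD11c-positive splenocytes from lupus-prone and control mice. The genes were chosen by name as genes of the G2 phase, mitosis and cytokinesis, and all 44 were among the 13786 genes of the count table. Cells came from 7-week-old female B6.SLE123 mice (n = 4), a C57BL/6-background strain that carries 3 chromosome intervals (SLE1, SLE2 and SLE3) from the lupus-prone NZM strain, and from female C57BL/6 controls of the same age (n = 4). Neither strain was described as treated, and both were described as obtained from The Jackson Laboratory. The samples were labelled as dendritic cells, and CD11c is also carried by splenic macrophages and other leukocytes. The libraries held 25761789 to 32931045 counts in C57BL/6 mice and 25563070 to 37367094 in B6.SLE123 mice. The lowest count of any of the 44 genes in any library was 85.

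Entry into mitosis is driven by Cdk1 bound to cyclin B, and the Aurora and Polo-like kinases then act with the kinetochores to attach chromosomes to the spindle. The spindle checkpoint holds back the anaphase-promoting complex until all chromosomes are attached, after which securin and the cyclins are degraded, the chromatids separate and the midzone directs the cleavage of the cell. Most of these genes are transcribed in late S phase, G2 and mitosis and are low in resting cells, so that their transcripts are widely used as marks of dividing cells. In the spleen, precursors of conventional dendritic cells still divide, while most mature dendritic cells do not.

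Of the 44 genes, 43 were higher and 1 was lower in B6.SLE123 mice than in controls at an adjusted p below 0.05 by the quasi-likelihood test of edgeR, which called 26.7% of all 13786 genes higher and 26.6% lower (53.4% in either direction). The median log2 fold change of the 44 genes was 0.93, with quartiles of 0.81 and 1.01, beside a median of -0.0019 over all genes. The changes were close to each other in size, and 38 of the 44 lay between 0.7 and 1.3 on the log2 scale. The largest adjusted p was 0.0169, for Bub1b. More than 2-fold changes were seen for 13 genes, all higher in B6.SLE123 (Bub1, Cdc20, Cenpe, Cenpf, Kif15, Kif2c, Kif4, Nusap1, Hmmr, Kif20a, Prc1, Mki67 and Top2a), where 2.76% of all genes passed this threshold upward and 8.29% downward. This count rests on a threshold close to the middle of the changes, and was 8 without C57BL/6 mouse 3, 6 without B6.SLE123 mouse 2 and 21 without B6.SLE123 mouse 4.

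The mean log2 CPM (counts scaled to the size of the library) of the 44 genes was 4.35, 4.49, 4.37 and 4.47 in C57BL/6 mice 1 to 4 and 5.34, 5.46, 5.24 and 5.03 in B6.SLE123 mice 1 to 4. The strains did not overlap, and the difference of 0.85 was larger than the spread of either strain (SD 0.07 and 0.18, n = 4 each). Summed over the genes, the level was 1262, 1385, 1258 and 1345 CPM in C57BL/6 mice (1312 ± 63.1) and 2605, 2822, 2445 and 2094 CPM in B6.SLE123 mice (2491 ± 307), a ratio of 1.90. These transcripts were a small part of each library, 0.125% to 0.140% of the counts in C57BL/6 and 0.208% to 0.281% in B6.SLE123 mice. In bulk RNA, a larger number of dividing cells and more of these transcripts in each cell cannot be told apart, and the same holds for fewer cells of a type and less RNA per cell. The levels of the 2 strains did not overlap for 42 genes that were higher in B6.SLE123 (24.4% of all genes) and for 1 that was lower (24.5% of all genes, 48.9% in either direction). Bub1b was the gene whose levels overlapped.

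**Figure D1:**
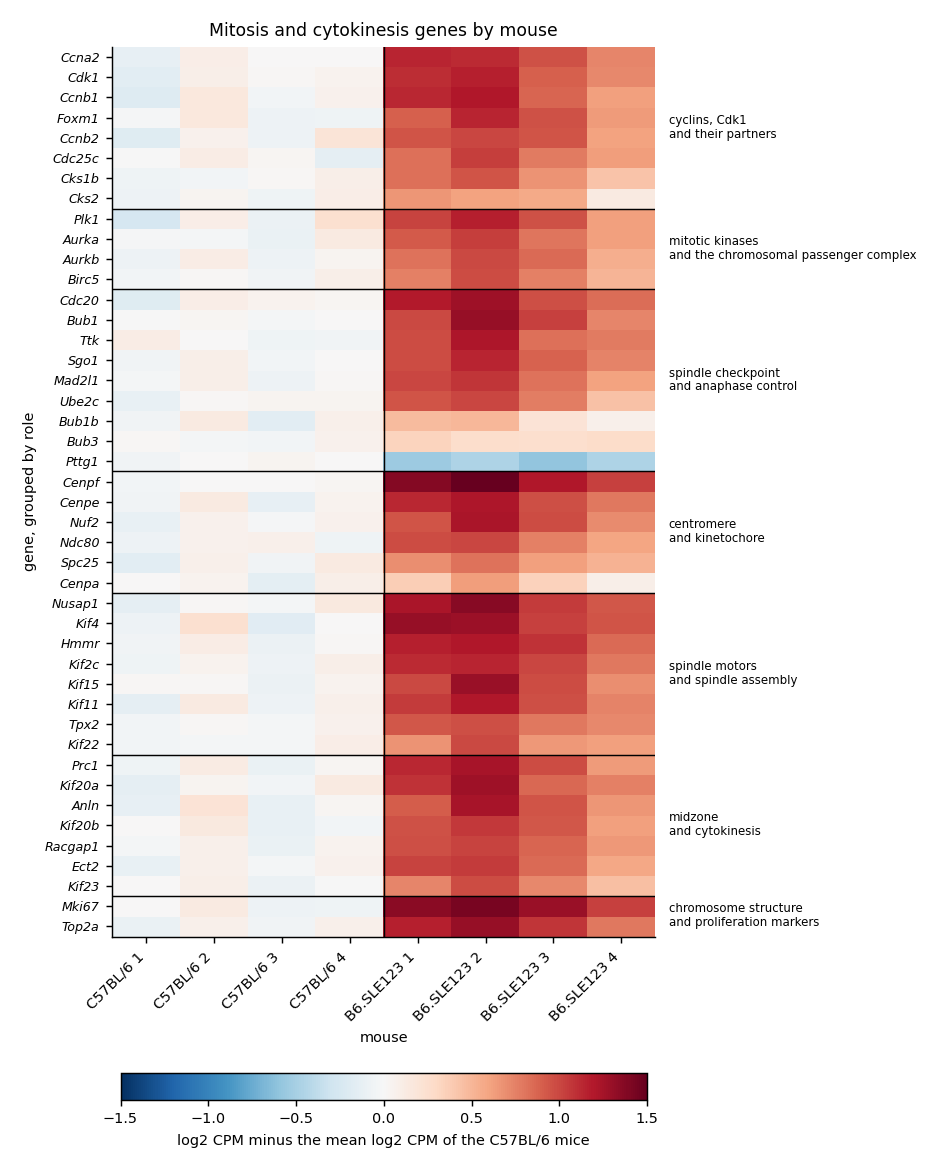
Level of each of the 44 genes (rows, grouped by role) in each of the 8 mice (columns), as log2 CPM minus the mean log2 CPM of the 4 C57BL/6 mice; red is higher and blue is lower. The 4 B6.SLE123 columns are red in nearly every row, palest in mouse 4, and Pttg1 is the row that is blue in all 4.

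Promoter sequences are shown for 5 genes, since genes of late cell cycle phases are known to share 2 short promoter elements, the cell cycle homology region (CHR), bound by the DREAM and MuvB complexes, and the CCAAT box, bound by NF-Y. The sequences are from RefSeq on GRCm38.p6, the assembly that mm10 names, and run from 250 bases before to 50 after the transcription start. Windows were found for 38 of the 44 genes, and none for Ccna2, Cdc25c, Foxm1, Aurkb, Tpx2 and Kif20a. Cdk1 and Ccnb2 stand for the regulators of mitotic entry, Cenpf for the gene with the largest rise, Bub3 for a gene with a small rise and Pttg1 for the gene that fell. Each is written 5′ to 3′ on the strand of the gene, and capitals mark the CHR (TTTGAA or TTCGAA) and CCAAT on either strand. The windows are Cdk1 at chr10:69352863-69353162 (minus strand), Ccnb2 at chr9:70421505-70421804 (minus), Cenpf at chr1:189688037-189688336 (minus), Bub3 at chr7:131560120-131560419 (plus) and Pttg1 at chr11:43425932-43426231 (minus).
Cdk1: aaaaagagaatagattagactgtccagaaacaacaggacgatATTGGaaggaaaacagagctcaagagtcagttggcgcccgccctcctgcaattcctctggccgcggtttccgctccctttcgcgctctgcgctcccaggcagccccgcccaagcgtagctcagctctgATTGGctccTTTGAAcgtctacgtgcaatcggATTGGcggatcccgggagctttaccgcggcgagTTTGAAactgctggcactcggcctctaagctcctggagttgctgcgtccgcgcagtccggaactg
Ccnb2: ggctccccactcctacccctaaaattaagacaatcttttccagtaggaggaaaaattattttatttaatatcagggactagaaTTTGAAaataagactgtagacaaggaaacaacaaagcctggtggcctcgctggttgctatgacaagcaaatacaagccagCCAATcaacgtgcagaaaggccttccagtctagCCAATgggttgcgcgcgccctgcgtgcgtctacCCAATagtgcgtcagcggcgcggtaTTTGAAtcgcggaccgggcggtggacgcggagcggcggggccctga
Cenpf: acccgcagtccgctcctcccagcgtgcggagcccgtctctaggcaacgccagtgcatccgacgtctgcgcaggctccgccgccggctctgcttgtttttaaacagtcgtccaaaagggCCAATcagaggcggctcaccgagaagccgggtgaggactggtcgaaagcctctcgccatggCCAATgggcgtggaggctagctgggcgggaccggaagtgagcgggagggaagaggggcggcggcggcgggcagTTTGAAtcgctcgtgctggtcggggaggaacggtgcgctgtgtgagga
Bub3: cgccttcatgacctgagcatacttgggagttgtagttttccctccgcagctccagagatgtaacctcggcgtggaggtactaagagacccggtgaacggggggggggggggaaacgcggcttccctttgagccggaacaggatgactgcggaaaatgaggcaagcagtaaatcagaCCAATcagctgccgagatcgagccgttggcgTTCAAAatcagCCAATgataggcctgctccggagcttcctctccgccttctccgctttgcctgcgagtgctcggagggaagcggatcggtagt
Pttg1: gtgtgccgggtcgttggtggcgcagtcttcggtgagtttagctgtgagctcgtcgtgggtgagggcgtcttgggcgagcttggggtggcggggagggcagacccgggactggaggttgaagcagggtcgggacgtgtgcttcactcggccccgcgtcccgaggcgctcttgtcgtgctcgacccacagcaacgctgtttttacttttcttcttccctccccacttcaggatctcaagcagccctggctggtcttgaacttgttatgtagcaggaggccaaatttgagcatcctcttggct
The Cdk1 and Ccnb2 windows each held 2 CHR and 3 CCAAT matches, the Cenpf and Bub3 windows 1 and 2, and the Pttg1 window neither. The RefSeq start of Pttg1 used here lies 270 bases inside the 5′ end of the gene in the count table, so its 5′ end in the table was not covered, and that of Bub3 148 bases inside. A second RefSeq window of Bub3 overlaps the one shown and holds the same matches. The window of Bub3, a gene with a small rise, held both elements.

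The CHR letters were found in 33 of 41 windows of the 44 genes (80.5%; 3 genes have more than 1 window), beside 19.2% of all 32851 promoter windows and 14.2% of those of the other genes in the table. CCAAT was found in 31 of 41 windows (75.6%), beside 37.4% of all windows. Both were found in 28 windows (68.3%), beside 7.52% of all windows. No CHR match overlapped a CCAAT match. Counted per window, so that a site in 2 overlapping windows of a gene counts for each, there were 47 CHR and 73 CCAAT matches, at 43 and 67 distinct sites. The CHR matches had a median position 14 bases before the start, and 32 lay within 50 bases of it, while the CCAAT matches had a median of 66 bases before the start. Birc5, Mad2l1, Nuf2, Nusap1 and Pttg1 had neither in the windows read, and 4 of these 5 rose, by log2 fold changes of 0.76, 0.89, 0.98 and 1.15. The letters describe these windows and are not evidence of binding, and their relation to the changes of the genes was not tested.

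**Figure D2:**
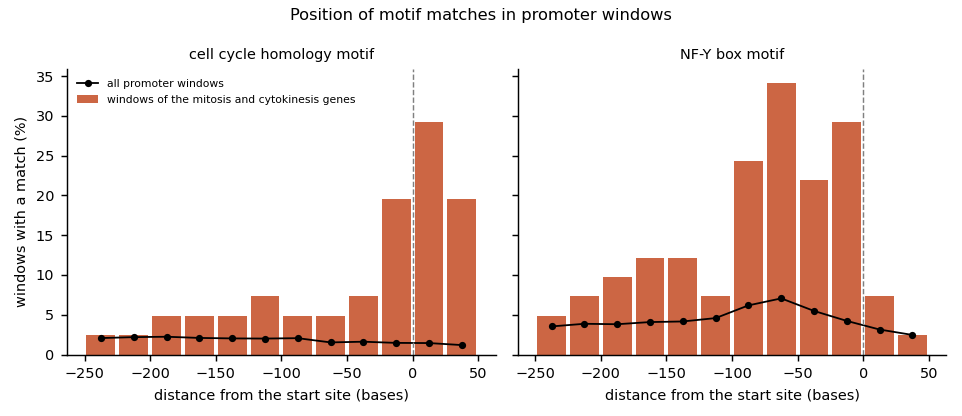
Share of the 41 promoter windows of the genes (bars) and of all promoter windows (line) with a CHR match (left) or a CCAAT match, the NF-Y box (right), by distance in bases from the RefSeq start site (dashed line). CHR matches gather around the start, with a median of 14 bases before it, and CCAAT matches lie further upstream, with a median of 66 bases before it.

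All 8 genes of the cyclins, Cdk1 and their partners rose, with a median log2 fold change of 0.90. Cdk1, the kinase that drives entry into mitosis, was at 14.9, 17.6, 16.7 and 17.1 CPM in C57BL/6 mice 1 to 4 and 35.8, 37.0, 30.7 and 27.2 CPM in B6.SLE123 mice 1 to 4. Every B6.SLE123 mouse was above every C57BL/6 mouse (16.6 ± 1.19 and 32.7 ± 4.54 CPM; log2 fold change 0.98, SE 0.10, adjusted p = 1.19e-05). Ccnb1, which encodes cyclin B1, the mitotic partner of Cdk1, was at 11.9, 15.2, 13.2 and 14.2 CPM in C57BL/6 and 29.8, 31.1, 24.8 and 20.8 CPM in B6.SLE123 mice, again without overlap (log2 fold change 0.97, SE 0.12). Ccnb2 (cyclin B2) and Ccna2 (cyclin A2, which acts from S phase into mitosis) rose by 0.88 and 1.0. Foxm1, the transcription factor that activates many genes of G2 and mitosis, was at 28.9, 32.6, 27.8 and 27.9 CPM in C57BL/6 and 54.5, 64.3, 56.5 and 45.5 CPM in B6.SLE123 mice, with no overlap (log2 fold change 0.92, SE 0.10, adjusted p = 1.63e-05). Cdc25c, a phosphatase that activates Cdk1, had the lowest CPM of the 44 genes, at 2.95 to 3.49 CPM in C57BL/6 and 5.0 to 6.61 CPM in B6.SLE123 mice. The small Cdk-binding subunits changed least in this group. Cks1b rose by a log2 fold change of 0.73 and Cks2 by 0.51, and the lowest B6.SLE123 mouse was only just above the highest C57BL/6 mouse for Cks2 (13.5 and 13.2 CPM).

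The 4 genes of the mitotic kinases and the chromosomal passenger complex also rose, by log2 fold changes of 0.76 to 0.94. Plk1, the Polo-like kinase of mitotic entry and spindle assembly, was at 11.4, 14.6, 12.8 and 16.1 CPM in C57BL/6 and 27.6, 30.6, 26.3 and 20.8 CPM in B6.SLE123 mice (log2 fold change 0.94, SE 0.13, adjusted p = 0.000109). Aurkb, the kinase of the chromosomal passenger complex, was at 25.4, 29.0, 25.5 and 27.5 CPM in C57BL/6 and 46.9, 53.2, 48.2 and 39.0 CPM in B6.SLE123 mice. The strains did not overlap for either kinase. Aurka, the Aurora kinase of centrosomes and spindle poles, rose by 0.85, and Birc5 (survivin), another subunit of the passenger complex, by 0.76.

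The 9 genes of the spindle checkpoint and of anaphase control differed most among themselves, with 8 higher, 1 lower and log2 fold changes from -0.52 to 1.08. Cdc20, the activator of the anaphase-promoting complex, was at 15.9, 19.4, 18.7 and 18.3 CPM in C57BL/6 and 41.0, 43.7, 35.3 and 32.3 CPM in B6.SLE123 mice, the largest rise of the group (1.08, SE 0.10, adjusted p = 6.37e-06). Bub1, a checkpoint kinase at the kinetochore, was nearly the same in the 4 C57BL/6 mice, at 16, 16.3, 15.7 and 16 CPM, and reached 31.7, 39.4, 32.6 and 26.5 CPM in B6.SLE123 mice (log2 fold change 1.03, SE 0.10). The kinase Ttk (Mps1), the checkpoint protein Mad2l1 (Mad2), the cohesin protector Sgo1 and Ube2c, the E2 enzyme of the anaphase-promoting complex, rose by 0.96, 0.89, 0.95 and 0.81.

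Bub3 and Bub1b, which encode 2 subunits of the mitotic checkpoint complex, rose less. Bub3 was at 78.5, 76.3, 75.3 and 81.1 CPM in C57BL/6 and 97.7, 93.6, 92.8 and 93.8 CPM in B6.SLE123 mice, a small change with little spread and no overlap (log2 fold change 0.28, SE 0.04, adjusted p = 0.000165). Bub1b was at 40.9, 46.3, 37.8 and 44.6 CPM in C57BL/6 and 58.9, 59.8, 48.8 and 44.5 CPM in B6.SLE123 mice. B6.SLE123 mouse 4 fell below 2 of the C57BL/6 mice, and the log2 fold change of 0.32 (SE 0.10) had an adjusted p of 0.0169. The call for Bub1b was lost without C57BL/6 mouse 3 (0.27, adjusted p = 0.0528) and without B6.SLE123 mouse 2 (0.25, adjusted p = 0.0536).

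Pttg1 (ENSMUSG00000020415.16, chr11:43420250-43426251, minus strand) was the gene that fell. It encodes securin, which inhibits separase until anaphase. Its level was 31.3, 32.6, 33.2 and 32.6 CPM in C57BL/6 and 22.3, 23.5, 21.5 and 23.5 CPM in B6.SLE123 mice, from 827, 850, 1090 and 985 counts and 705, 876, 726 and 596 counts. All 4 B6.SLE123 mice were below all 4 C57BL/6 mice (32.4 ± 0.821 and 22.7 ± 0.988 CPM; log2 fold change -0.52, SE 0.05, adjusted p = 1.08e-05). The log2 fold change of Pttg1 stayed between -0.54 and -0.49 when any 1 mouse was left out. The order of the B6.SLE123 mice seen for most of the genes was not seen for Pttg1, for which mouse 4 was level with mouse 2. The annotation places no exon of another gene on the exons of Pttg1.

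**Figure D3:**
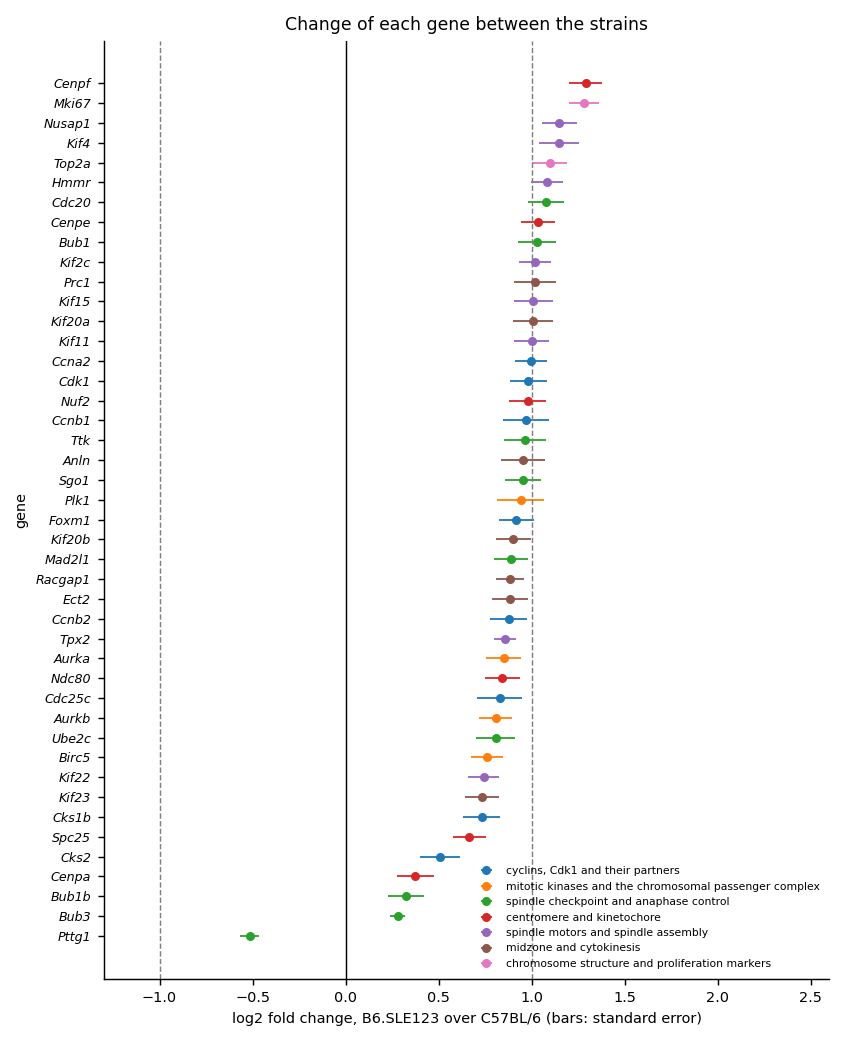
Log2 fold change of each of the 44 genes, B6.SLE123 over C57BL/6, (points, colored by role) with its standard error (bars); dashed lines mark 2-fold. Most points gather just below and above 1, the 5 lowest risers are Spc25, Cks2, Cenpa, Bub1b and Bub3 at 0.66 to 0.28, and Pttg1 stands alone below 0 at -0.52.

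All 6 centromere and kinetochore genes rose. Cenpf (ENSMUSG00000026605.14, chr1:189640606-189688086, minus strand), a large kinetochore protein that accumulates in G2, was at 24.8, 25.6, 25.5 and 25.9 CPM in C57BL/6 and 66.0, 72.3, 58.6 and 52.0 CPM in B6.SLE123 mice. This was the largest change of the 44 genes, close to that of Mki67 (25.5 ± 0.468 and 62.2 ± 8.84 CPM; log2 fold change 1.29, SE 0.09, adjusted p = 1.07e-06), and even the lowest B6.SLE123 mouse was 2.0 times the highest C57BL/6 mouse. Cenpe, the kinesin that moves chromosomes to the metaphase plate, rose by 1.04, and Ndc80, Nuf2 and Spc25, subunits of the complex that binds microtubule ends, rose by 0.84, 0.98 and 0.66. Cenpa, the histone H3 variant that marks the centromere, was at 34.2, 35.4, 30.9 and 36.1 CPM in C57BL/6 and 44.1, 52.8, 43.5 and 36.2 CPM in B6.SLE123 mice. For Cenpa, B6.SLE123 mouse 4 was level with the highest C57BL/6 mouse, and the rise was small (0.37, SE 0.10, adjusted p = 0.00828).

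The 8 genes of spindle motors and spindle assembly had a median log2 fold change of 1.01, and 5 of them rose more than 2-fold. Kif4, the chromosome-bound kinesin, was at 13, 16.1, 12.2 and 13.8 CPM in C57BL/6 and 34.0, 33.5, 28 and 26.3 CPM in B6.SLE123 mice (log2 fold change 1.15, SE 0.11). Nusap1, which bundles spindle microtubules, was at 24.5, 27.3, 26.4 and 29.9 CPM in C57BL/6 and 63.2, 69.2, 55.7 and 51.3 CPM in B6.SLE123 mice (1.15, SE 0.09, adjusted p = 2.85e-06). Kif11 (Eg5), the motor that pushes the spindle poles apart, was at 44.9, 53.9, 46.9 and 51.9 CPM in C57BL/6 and 102, 113, 96.6 and 82.4 CPM in B6.SLE123 mice (1.0, SE 0.09). The strains were well apart for each of these genes. The spindle proteins Hmmr and Tpx2 rose by 1.08 and 0.86, and the kinesins Kif15, Kif2c and Kif22 by 1.01, 1.02 and 0.74.

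The 7 genes of the midzone and of cytokinesis rose by log2 fold changes of 0.73 to 1.02. Prc1, which cross-links the microtubules of the midzone, was at 17.5, 19.9, 17.0 and 18.7 CPM in C57BL/6 and 40.1, 43.1, 36.1 and 28.4 CPM in B6.SLE123 mice (1.02, SE 0.11). Kif23 and Racgap1 encode the 2 subunits of centralspindlin, which recruits Ect2, the activator of RhoA at the cleavage furrow. Kif23 was at 62.1, 65.9, 58.3 and 61.8 CPM in C57BL/6 and 103, 122, 102 and 84.9 CPM in B6.SLE123 mice (0.73, SE 0.09), and Racgap1 at 40.6, 43.5, 38.5 and 42.8 CPM and 81.0, 83.5, 75.9 and 64.7 CPM (0.88, SE 0.08). Ect2 itself rose by 0.88, and Anln (anillin), the scaffold of the contractile ring, by 0.95. Kif20a and Kif20b, kinesins that act in cytokinesis, rose by 1.01 and 0.90. None of the 7 overlapped between the strains.

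Mki67 and Top2a, the proliferation marker Ki-67 and topoisomerase II alpha, which untangles chromosomes, had the highest CPM of the 44 genes and rose more than 2-fold. Mki67 (ENSMUSG00000031004.8, chr7:135689784-135716361, minus strand) was at 197, 215, 186 and 188 CPM in C57BL/6 and 501, 528, 481 and 401 CPM in B6.SLE123 mice (log2 fold change 1.28, SE 0.08, adjusted p = 6.78e-07). Top2a was at 133, 151, 139 and 151 CPM in C57BL/6 and 320, 356, 302 and 249 CPM in B6.SLE123 mice (1.10, SE 0.09, adjusted p = 4.04e-06). The lowest B6.SLE123 mouse was above the highest C57BL/6 mouse by 1.86 times for Mki67 and 1.64 times for Top2a. Together they made up 25.9% of the summed CPM of the 44 genes in C57BL/6 and 31.5% in B6.SLE123 mice.

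Levels were also divided by the merged length of all annotated exons of each gene. This length can exceed that of the transcript expressed, so genes are compared only roughly. The mean level in C57BL/6 mice ran from 0.658 CPM per kb of exon for Cdc25c to 19.6 for Mki67, with a median of 4.53. Cks1b and Cks2 (18.6 and 17.8 CPM per kb), Pttg1 (16.2), Top2a (15.9) and Ccnb2 (13.9) followed Mki67 in C57BL/6 mice. In B6.SLE123 mice Mki67 was at 47.5, Top2a at 34.0 and Pttg1 at 11.3 CPM per kb.

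**Figure D4:**
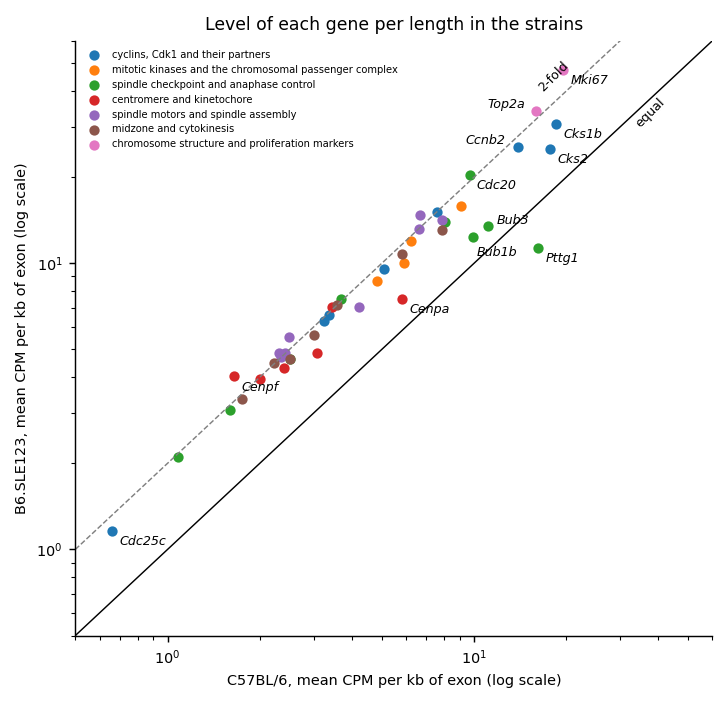
Mean CPM per kb of exon of each of the 44 genes in C57BL/6 mice (horizontal) and B6.SLE123 mice (vertical), both on log scales, with lines at equal and at 2-fold. The genes run along the 2-fold line over the whole range of levels, Bub1b, Bub3 and Cenpa lie nearer the line of equal levels, and Pttg1 lies below it.

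Pairs of related genes, 6 in all, were compared by the log2 ratio of their CPM in each mouse, with an exact two-sided permutation test that cannot go below 0.0286 for 4 against 4 mice, and with p-values adjusted over the 6 pairs. The log2 ratio of Cks1b to Cks2 was 0.76 ± 0.07 in C57BL/6 and 0.99 ± 0.11 in B6.SLE123 mice, and these did not overlap (exact permutation p = 0.0286, adjusted p = 0.171). The log2 ratio differed by 0.08 for Ccnb1 to Ccnb2 (exact permutation p = 0.343), by 0.04 for Aurka to Aurkb (p = 0.600), by 0.03 for Bub1b to Bub3 (p = 0.771), by 0.10 for Kif20a to Kif20b (p = 0.257) and by -0.13 for Ndc80 to Nuf2 (p = 0.143). None of the 6 passed an adjusted p of 0.05. The smallest possible exact permutation p of 0.0286 was itself adjusted to 0.171, so a pair alone at that p could not pass. The tests therefore cannot decide whether the members of a pair changed alike.

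The genes also varied together from mouse to mouse within the strains. In B6.SLE123, mouse 2 had the highest level for 40 of the 44 genes and mouse 4 the lowest for 42. B6.SLE123 mouse 4 was above all 4 C57BL/6 mice for 42 genes, and its median log2 ratio to the mean of the other 3 was -0.33, beside 0.0022 over all genes. In C57BL/6, mouse 2 was highest for 24 genes and mouse 4 for 16, while mouse 1 was lowest for 24 and mouse 3 for 19. The coefficient of variation had a median of 6.25% (1.63% to 14.9%) in C57BL/6 and 13.5% (2.31% to 17.8%) in B6.SLE123 mice. With the genes in 1 library sharing its cells and its depth, the 44 genes are not independent measures of a mouse.

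The 3 NZM intervals lie on chromosomes 1, 4 and 7. Of the 44 genes, 9 are on these chromosomes (Nuf2 and Cenpf on 1, Kif2c and Cdc20 on 4, and Bub3, Plk1, Prc1, Kif22 and Mki67 on 7), with a median log2 fold change of 1.02, beside 0.89 for the 35 genes elsewhere. Whether these 9 lie inside the intervals was not tested. Several genes share exon bases with a gene on the other strand in the GENCODE annotation, and as the strand setting of the counting is not given in the sources used here, their reads may include those of the partner. The share of exon bases is 29.3% for Kif20a (with Cdc23), 22.8% for Ube2c (Tnnc2), 15.1% for Kif4 (Pdzd11), 12.7% for Cdc25c (Gm3550), 12.5% for Ccna2 (Exosc9) and 11.1% for Prc1 (Rccd1).

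Other genes of cell division were counted in lists, and most rose as well, where 26.7% of all genes were called higher and 26.6% lower. All 13 other mitotic kinases and phosphatases were higher (median 0.90), led by Nek2 (1.20), a centrosome kinase, and Cit (1.11), citron kinase of the midbody. Of 28 other spindle and cytokinesis genes, 27 were higher and 1 did not pass (median 0.89), with Aspm, a spindle pole protein, at 1.32 and Cep55, of the midbody, at 1.23. Of 37 other kinetochore and passenger genes, 28 were higher, 1 lower and 8 did not pass (median 0.72). In that list Knl1 (1.25) and Spc24 (1.01), of the outer kinetochore, rose and Cenpo (-0.32) fell. Condensin and cohesin had 16 of 18 higher, with a median of 0.35, led by the condensin subunit Ncapg (1.18) and the cohesin acetyltransferase Esco2 (1.01).

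The subunits and regulators of the anaphase-promoting complex, the target of the checkpoint and of Cdc20, changed little. For this list and the 2 that follow, the shares over all genes were again 26.7% called higher and 26.6% lower. Of 17, 8 were higher, 2 lower and 7 did not pass (median 0.13), from Fbxo5 (Emi1, an inhibitor of the complex) at 0.59 and Anapc11 at 0.30 to Cdc26 at -0.13 and Anapc16 at -0.28. Among 23 factors that bind the promoters of mitotic genes, such as the E2F, DREAM, MuvB and NF-Y proteins, 15 were higher and 8 did not pass (median 0.27). Mybl2 (B-Myb), the MuvB partner that activates mitotic genes, rose by 1.04 and E2f8 by 1.0. The cyclin-dependent kinase inhibitors and quiescence genes moved in both directions, as all genes did, with 5 higher, 5 lower and 4 not called of 14 (median 0.019). Cdkn2b (1.05) and Cdkn2a (0.75), which encode the inhibitors p15 and p16 with p19Arf, rose, and Klf2 (-0.71), a quiescence factor, and Cdkn2c (-0.48), the inhibitor p18, fell.

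The genes of G1 and S phase moved with those of mitosis. Of 31, 26 were higher, 2 lower and 3 did not pass, beside 26.7% of all genes called higher and 26.6% lower. Their median of 0.90 was close to the 0.93 of the 44 genes. Dtl (1.27) and Uhrf1 (1.22), of DNA replication and the upkeep of DNA methylation, rose most, and the G1 cyclin Ccnd2 (-0.50) and the kinase Cdk6 (-0.35) fell.

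**Figure D5:**
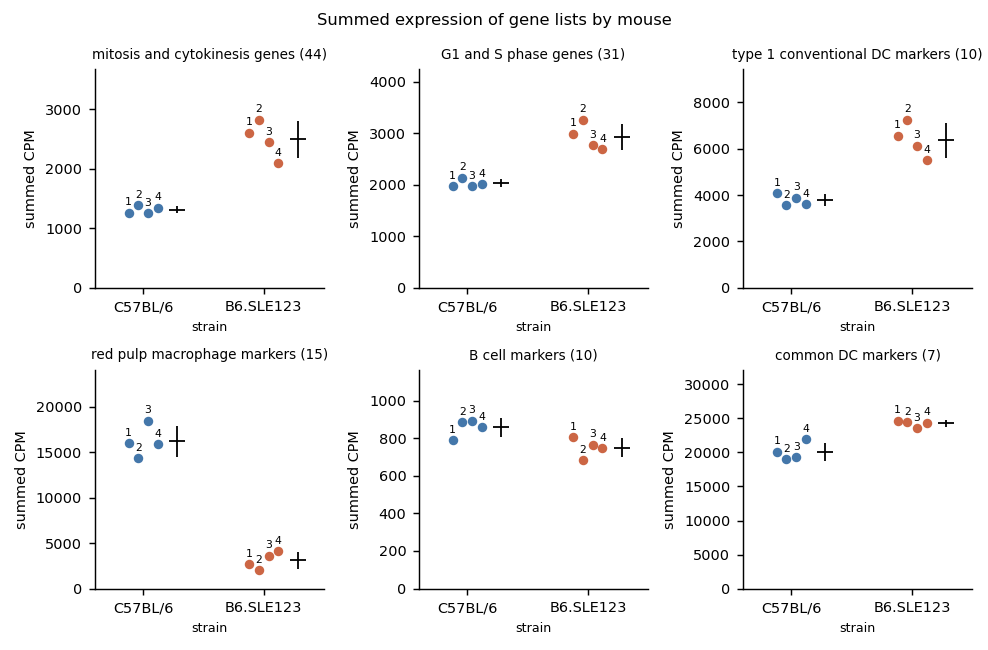
Summed CPM of 6 gene lists in each mouse (points, numbered by mouse within the strain), with the mean and SD of the 4 mice beside them (bars). The 44 genes, the G1 and S phase genes and the type 1 dendritic cell markers are higher in all 4 B6.SLE123 mice, with mouse 2 highest and mouse 4 lowest. The red pulp macrophage markers are lower in all 4.

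Markers of the cell types that a CD11c selection can hold also differed between the strains, where 26.7% of all genes were called higher and 26.6% lower. The 7 common dendritic cell markers were all higher (median log2 fold change 0.32; summed level 19027 to 21965 CPM in C57BL/6 and 23604 to 24679 CPM in B6.SLE123 mice), among them Itgax, which encodes CD11c, at 0.22, Flt3 at 0.39 and Zbtb46 at 0.32. Of 10 type 1 conventional dendritic cell markers, 8 were higher and 1 lower (median 0.84; 3578 to 4088 and 5493 to 7255 CPM), with Xcr1 at 1.23 and Clec9a at 0.82. All 15 red pulp macrophage markers were lower (median -2.40; 14371 to 18469 and 2053 to 4084 CPM), as were 4 of 6 marginal zone macrophage markers (332 to 411 and 64.3 to 119 CPM). In B6.SLE123 mice 2, 1, 3 and 4, the order of the summed level of the 44 genes, the type 1 markers summed to 7255, 6564, 6136 and 5493 CPM and the red pulp markers to 2053, 2677, 3631 and 4084 CPM. These orders were not particular to the type 1 and red pulp markers. Germinal center B cell markers fell in the same order of mice, at 268, 265, 244 and 221 CPM. Type 2 conventional dendritic cell markers rose in that order, at 1250, 1263, 1367 and 1529 CPM. In C57BL/6 mice the type 1 markers did not follow the order of the 44 genes, being highest in mouse 1 and lowest in mouse 2. By summed CPM, the red pulp markers ran in the reverse order in C57BL/6 mice. They were at 14371, 15902, 15974 and 18469 CPM in mice 2, 4, 1 and 3, in which the 44 genes summed to 1385, 1345, 1262 and 1258 CPM. Mice 1 and 3 were nearly level for the 44 genes. By mean log2 CPM of the 44 genes, mouse 1 was below mouse 3 (4.35 and 4.37), and the reverse order was not complete. The part of these cell types in the rise of the 44 genes was not tested.

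Markers of other cells, some of them known to divide in the spleen, moved in both directions. Of all genes, 26.7% were called higher and 26.6% lower, and counts near these shares do not set a list apart. Of 8 germinal center B cell markers, 5 were higher, 4 of them more than 2-fold, and 3 did not pass (median log2 fold change 0.96; 170 to 192 and 221 to 268 CPM). Nuggc had the largest rise of that list (2.19), from a mean of 0.106 to 0.521 CPM, and Bcl6, the transcription factor of these cells, was at means of 125 and 132 CPM and did not pass. Of 10 B cell markers, 1 was higher and 7 were lower (788 to 893 and 682 to 805 CPM). Of 8 plasma cell markers, 3 were higher, each more than 2-fold, and 2 lower, 1 of them more than 2-fold. The plasma cell list had a median log2 fold change of 0.63, and its summed level overlapped between the strains (296 to 314 and 261 to 335 CPM). Of 10 erythroid markers, 1 was higher, Tfrc (1.09), the transferrin receptor of dividing cells in general. Another 8 were lower, each more than 2-fold, and the list had a median log2 fold change of -2.75. Its summed level did not show this fall, at 186 to 371 and 247 to 298 CPM. Klf1 was at means of 0.521 and 0.163 CPM. Of 7 progenitor markers, 4 were higher and 1 lower (856 to 963 and 1191 to 1254 CPM), with Kit at 0.49. The 9 type 2 dendritic cell markers had 0 higher and 4 lower (2215 to 2415 and 1250 to 1529 CPM), the 10 plasmacytoid markers 2 and 4 (510 to 545 and 425 to 512 CPM), the 10 monocyte markers 0 and 4 (1249 to 1400 and 724 to 1074 CPM), the 8 neutrophil markers 3 and 1 (at most 15 CPM in all), the 9 T cell markers 0 and 2 (278 to 318 and 277 to 379 CPM) and the 8 NK cell markers 0 and 1 (109 to 140 and 111 to 124 CPM). The part of these cells in the rise of the 44 genes was not tested either.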

How the data were processed

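The authors deposited raw counts per gene, made by featureCounts after adapter trimming (cutadapt) and STAR alignment to the mm10 mouse genome, for 8 libraries, 4 per strain. Per the labels, libraries were made with a stranded mRNA kit. Tool versions, the strand setting of the counting and the handling of reads with several placements are not given in the sources used here. The table also held the authors' own comparison (mean level, fold change, test statistic and p-values), which was not used. Samples were grouped by strain from their titles, and as no source says that each library is a separate animal, p-values measure the spread between these 8 libraries, called mice here by their titles.

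Counts were fitted over all 13786 genes with edgeR 4.0.16 (R 4.3.3), TMM factors and no filter, by the quasi-likelihood test with Benjamini-Hochberg adjustment. CPM are scaled by the TMM factors, and the mean log2 CPM used a prior count of 2. Any of the 44 genes could be named, and in the other lists the 2 largest called rises and falls and, for cell type markers, up to 3 defining genes whatever their value; not all of these are printed. Alternatives were other scalings, a count filter, a replicate block, DESeq2 1.42.0, limma-voom (3.58.1) and leaving out each mouse. The code was tested on simulated data. Replicates of a strain differed by more than counting noise (chi-square per degree of freedom 5.15 to 19.7). Exon lengths and gene overlaps are from GENCODE, which matched 13777 genes. The 44 genes and the lists were chosen with earlier results of these data known.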

Additional observations from a re-analysis of the deposited data

Results flagged for a closer look

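In 90 strain-wise sets of 4 values, the gap of the highest or lowest mouse to the next was compared with the whole range of the set by Dixon's ratio at its 95% critical value, and 3 passed, where chance alone passes about 1 in 20. Ccnb2 was at 32.2 CPM in B6.SLE123 mouse 4, below 40.7 to 42.4 CPM in the other 3 (ratio 0.851). Cks2 was at 13.5 CPM in the same mouse, below 18.2 to 19.4 CPM (ratio 0.834). Kif22 was at 22.1 CPM in C57BL/6 mouse 4, above 20.1 to 20.4 CPM (ratio 0.852).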

How the results depend on the processing

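Under RLE, total-count and upper quartile scaling, a minimum of 10 counts in every sample, a replicate block, DESeq2 and limma-voom, 43 genes were higher and 1 lower, and no scaling moved the median of all genes by more than 0.02. Leaving out 1 mouse kept 43 to 44 calls, a median log2 fold change of 0.83 to 0.99 and a difference in mean log2 CPM of 0.78 to 0.92. Bub1b was the call lost. The more than 2-fold count of 13 ranged from 6 to 21 when 1 mouse was left out, and was 39 at more than 1.5-fold. In the pairs, leaving out 1 mouse gave -0.0071 to 0.0735 for Aurka to Aurkb and -0.0321 to 0.111 for Bub1b to Bub3, which turned the sign of differences near 0. For mice with the same number, the correlation of their deviations was 0.024, 0.071, -0.029 and 0.12. Over all pairings of the strains it ran from -0.097 to 0.12, highest for the mice numbered 4. These values cannot show whether mice with the same number share more than a number. The fit with the number as a replicate block called 43 genes higher and 1 lower, 11 more than 2-fold, with a median of 0.92. At 4 mice a strain, an exact test cannot go below 0.0286 for a pair.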
